A study of Caenorhabditis elegans with 24 samples.

Results

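The *rsp* genes of *C. elegans* (*rsp-1* to *rsp-8*) encode its SR proteins, splicing factors rich in serine and arginine. They were chosen by gene name as a family of RNA processing regulators, and all 8 were found among the 46756 genes counted in each library. All 8 also passed the filter on low counts (a mean of 10 or more per library), which left 13482 genes for testing. RNA came from whole hermaphrodites on day 1 of adulthood, fed *E. coli* OP50, raised at 20°C, and then kept for 3 h at 20°C (control conditions) or at 37°C (heat stress). The 3 genotypes were wildtype (N2 Bristol), *hlh-30(tm1978)* mutants (strain LRL31), which lack function of the TFEB-like transcription factor HLH-30, and neuronal HLH-30 rescued animals (strain LRL147), which carry the same *hlh-30(tm1978)* allele together with rab-3p::HLH-30::GFP. Rescue therefore depended on control sequences of the neuronal gene *rab-3*, both its promoter and its 3′UTR, in 1 transgenic strain, and each library was made from a large pool of worms, so that no value belongs to a single animal or tissue. There were 4 libraries in every group except wildtype at 20°C, where 3 were used. The remaining file, labelled wildtype 20°C replicate 1, held the same count as wildtype 37°C replicate 4 for 46756 of 46756 genes and was left out.

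SR proteins bind exonic sequences of pre-mRNA through RNA recognition motifs and recruit the splicing machinery through their arginine and serine repeats. Phosphorylation of these repeats by SR kinases controls where the proteins reside and when they act, and in many animals heat shock changes both this phosphorylation and splicing. Members are described here by human counterparts: *rsp-3* corresponds to SRSF1, *rsp-4* to SRSF2 and *rsp-6* to the small SRSF3 type. *rsp-1* and *rsp-2* are of the SRSF4, SRSF5 and SRSF6 type with a second, divergent RNA recognition motif. No counterpart is assigned here to *rsp-5*. *rsp-7* encodes an SR-related protein of the SREK1 type, and *rsp-8* the counterpart of the splicing regulator TRA2. Counts per gene add up the reads of all exons of a gene, so they measure how much RNA of each gene was present and not which isoform was made or how active the protein was.

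In the WBcel235 assembly (Ensembl annotation) 5 of the genes lie on chromosome II, 2 on III and 1 on IV. On chromosome II, *rsp-1* occupies 11453362 to 11455864 on the plus strand and *rsp-2* occupies 11451441 to 11452955 on the minus strand, so that these neighbours start 406 bases apart and point away from each other. *rsp-4* (5387411 to 5388836, minus), *rsp-5* (6490165 to 6491340, plus) and *rsp-7* (10659206 to 10662317, plus) lie elsewhere on the same chromosome. *rsp-3* (12686182 to 12687922, minus) and *rsp-8* (11826418 to 11830974, plus) lie on chromosome III, and *rsp-6* (7789847 to 7791229, minus) on chromosome IV. The longest annotated proteins range from 179 residues for *rsp-6* to 452 for *rsp-7*. Annotated non-coding transcripts exist for *rsp-1* (1 of 6 transcripts) and *rsp-6* (2 of 3), and reads from them enter the same count. The counted exons of *rsp-1* add up to 2399 bases, nearly the whole gene, against a longest coding length of 936 bases, so its level per kilobase is averaged over sequence that its shorter transcripts lack. Exons of *rsp-7* share 73 bases (4.05%) with *D2089.8* on the other strand, those of *rsp-1* share 59 bases (2.46%) with a pseudogene, and the other 6 genes share at most 2 bases. The strand setting of the counting is not given in the sources used here, so reads in these stretches cannot be assigned with certainty.

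Total counts per library ran from 11207383 to 28091186 with a median of 13971947. Of the libraries, 6 held at least 23025013 counts and the other 17 at most 15845829, and 3 of the 4 heated wildtype libraries were among the deep ones. The *rsp* genes had between 658 counts (*rsp-8*) and 11672 counts (*rsp-3*) in a library, for which counting error alone is 3.9% and 0.926% of the value. The labels were checked against *hlh-30* itself, at 39.9 to 73.8 CPM (a gene’s count scaled by the effective size of its library) in wildtype, 8.13 to 16.01 in mutants and 57.4 to 117 in rescued animals at 20°C. There only the mutants lay apart, since the wildtype and rescued ranges overlapped. At 37°C the 3 genotypes lay apart, at 15.48 to 20.45 CPM in wildtype, 4.19 to 7.88 in mutants and 24.4 to 50.9 in rescued animals. Heat was evident in the chaperone gene *hsp-70*, which ranged from 0.423 to 16.4 CPM over all libraries at 20°C and from 765 to 2595 CPM at 37°C, and the inducible small heat shock gene *hsp-16.2* ranged from 0.874 to 15.6 CPM and from 944 to 2441 CPM.

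All 8 *rsp* genes were well expressed, but at unequal levels. As CPM per kilobase of counted exon (RPKM, with TMM library scaling), the averages over the 23 libraries were 195 for *rsp-6*, 194 for *rsp-3*, 150 for *rsp-4*, 131 for *rsp-2*, 129.5 for *rsp-5*, 118 for *rsp-1*, 71.3 for *rsp-7* and 56.8 for *rsp-8*. These averages lie between the 79.4th percentile (*rsp-8*) and the 93.9th percentile (*rsp-6*) of the tested genes. The SR-related gene *rsp-7* and the TRA2-type gene *rsp-8* had the lowest means in all 6 groups, but the order above them differed between groups. At 20°C the mean of *rsp-6* was the highest in every genotype (216, 204 and 167 RPKM in wildtype, mutants and rescued animals), and at 37°C that of *rsp-3* was (275.5, 216 and 174 RPKM). *rsp-4* (163 RPKM) was above *rsp-3* (158) in mutants at 20°C, and *rsp-1*, at 160.0 RPKM, followed *rsp-3* and *rsp-6* in heated wildtype. Over all libraries, not every step of the order stood out from the spread. *rsp-6* was above *rsp-3* in only 12 of 23 libraries and *rsp-2* above *rsp-5* in 9 of 23, whereas *rsp-3* exceeded *rsp-4* in 21 of 23 and *rsp-1* exceeded *rsp-7* in 23 of 23. *rsp-5* was above *rsp-1* in 15 of 23 and *rsp-7* above *rsp-8* in 15 of 23. The order of the averages was the same with library size as the only scaling.

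The members also differed in how much they varied. The coefficient of variation over the 23 libraries was lowest for *rsp-4* (11.9%) and *rsp-2* (14.2%) and highest for *rsp-1* (27.0%) and *rsp-3* (23.8%). Added up over the family, RPKM came to 997 ± 89.7 (SD, n = 3) in control wildtype and 1238 ± 138 (SD, n = 4) in heated wildtype libraries, and in mutants to 996 ± 71.2 and 1160 ± 63.1 (SD, n = 4 for both). In rescued animals the sum was 943 ± 117 under control conditions and 936 ± 66.8 under heat (SD, n = 4 for both). The make-up of the family shifted as well: *rsp-3* supplied 17.8% ± 0.984 of the control wildtype sum (SD, n = 3) and 22.3% ± 0.324 of the heated one (SD, n = 4), while *rsp-8* supplied 6.88% ± 0.517 and 4.59% ± 0.649. These sums and shares are given as a description.

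**Figure D1:**
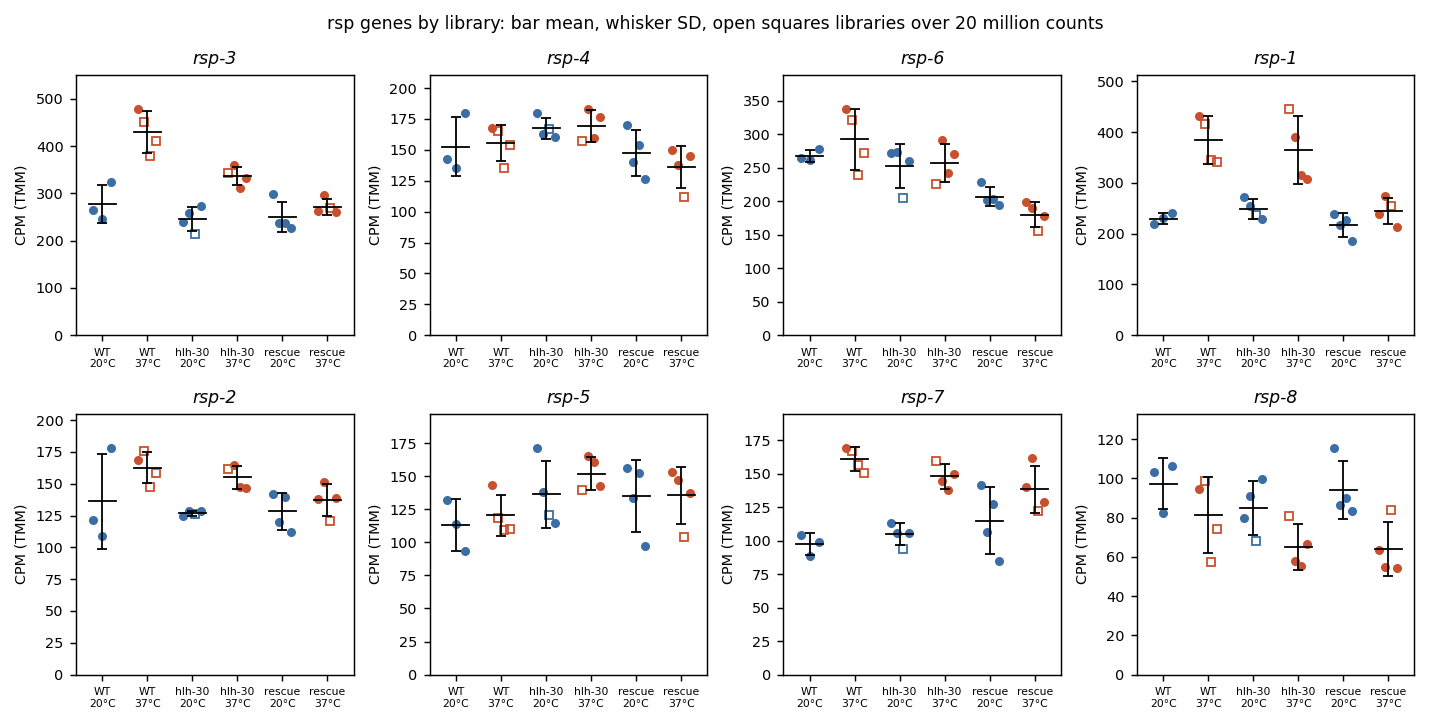
Levels of the 8 rsp genes (panels) in each of the 23 libraries by genotype and temperature (horizontal axis, WT is wildtype, hlh-30 the hlh-30(tm1978) mutants), in CPM after TMM scaling on axes starting at 0. Horizontal bars are means, whiskers SDs, blue 20°C, red 37°C, and open squares the 6 deep libraries. The heated wildtype libraries of rsp-3 lie between 379 and 479 CPM, above all wildtype controls (245 to 323).

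The first question was which *rsp* genes respond to heat in each genotype. Heat stress raised *rsp-1*, *rsp-3* and *rsp-7* in wildtype and the same 3 genes plus *rsp-2* in *hlh-30(tm1978)* mutants, by 1.22-fold to 1.67-fold. No *rsp* gene passed the test in rescued animals. *rsp-4*, *rsp-5* and *rsp-6* passed it in no genotype, with log2 fold changes between -0.17 and 0.16, and *rsp-8*, the only member with a negative value in all 3 genotypes, also missed the threshold.

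The SRSF1 counterpart *rsp-3*, which is needed for embryonic development in this species, was counted at 266, 245 and 323 CPM in wildtype at 20°C and at 479, 451, 379 and 410 CPM at 37°C. In mutants its values were 239.8, 258, 214 and 274 CPM under control conditions and 343, 359, 312 and 332 CPM under heat. In both genotypes every heated library lay above every control library. In rescued animals the values were 298, 238, 238 and 228 CPM under control conditions and 262, 296, 269 and 260.2 CPM under heat, and the groups overlapped. By edgeR's quasi-likelihood test heat gave a log2 fold change of 0.62 in wildtype (SE 0.16, adjusted p = 0.0163), 0.45 in mutants (SE 0.11, adjusted p = 0.0072) and 0.15 in rescued animals (SE 0.13, adjusted p = 0.438).

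*rsp-1*, of the SRSF4 to SRSF6 type, behaved alike. It was counted at 218, 230 and 240 CPM in wildtype at 20°C and at 432, 417, 345 and 342 CPM at 37°C. In mutants the values were 273, 254, 236 and 229 CPM under control conditions and 446, 390.3, 315 and 307 CPM under heat. The heated and control groups did not overlap in either genotype. Rescued animals gave 239, 217, 227 and 185 CPM under control conditions and 238, 274, 255 and 214 CPM under heat, and these ranges overlapped. The edgeR log2 fold change was 0.74 in wildtype (SE 0.15, adjusted p = 0.00653), 0.56 in mutants (SE 0.14, adjusted p = 0.0068) and 0.21 in rescued animals (SE 0.13, adjusted p = 0.285).

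The SR-related gene *rsp-7* was expressed at a lower level but changed by a similar factor. Its wildtype values were 104, 88.1 and 99.2 CPM in controls and 169, 167, 157 and 150.5 CPM under heat. Mutants gave 113, 106, 93.4 and 106 CPM under control conditions and 159, 144, 138 and 149.9 CPM under heat. Again no heated library of these genotypes fell within the range of its controls. In rescued animals *rsp-7* spread widely at 20°C (142, 107, 127 and 84.4 CPM) and overlapped with the heated libraries (139.7, 162, 122 and 129 CPM). The edgeR log2 fold change was 0.72 in wildtype (SE 0.13, adjusted p = 0.004), 0.50 in mutants (SE 0.10, adjusted p = 0.00286) and 0.30 in rescued animals (SE 0.16, adjusted p = 0.221).

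*rsp-2*, the divergent neighbour of *rsp-1*, rose less. In mutants it was counted at 125, 128, 126 and 128 CPM at 20°C and at 161, 164, 148 and 147 CPM at 37°C, so that the heated group lay wholly above a very tight control group. The edgeR log2 fold change was 0.29 (SE 0.10, adjusted p = 0.0317). In wildtype the controls ranged from 109 to 178 CPM and the heated libraries from 147 to 176 CPM, with a log2 fold change of 0.25 (SE 0.18, adjusted p = 0.32), and in rescued animals it was 0.13 (SE 0.13, adjusted p = 0.506). The call in mutants was weak: without any 1 of 7 of the 8 libraries in turn (all but 37°C replicate 3) the adjusted p lay between 0.0568 and 0.0789. Without wildtype 20°C replicate 4, the high control, *rsp-2* passed in wildtype too (log2 fold change 0.51, adjusted p = 0.0341).

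*rsp-8*, the counterpart of TRA2, leaned the other way. It was counted at 103, 82.4 and 106 CPM in wildtype at 20°C and at 94.9, 98.9, 57.4 and 74.1 CPM at 37°C. Mutants gave 79.9, 91.2, 68.2 and 99.8 CPM under control conditions and 81.0, 57.8, 55.2 and 66.5 CPM under heat. Rescued animals gave 116, 86.6, 90.2 and 83.4 CPM under control conditions and 63.6, 55.1, 83.8 and 54.3 CPM under heat. The groups overlapped in all 3 genotypes, in rescued animals only through the heated library at 83.8 CPM (replicate 3, the deep one). The edgeR log2 fold change was -0.26 in wildtype (SE 0.21, adjusted p = 0.383), -0.38 in mutants (SE 0.16, adjusted p = 0.0747) and -0.51 in rescued animals (SE 0.17, adjusted p = 0.0546). In rescued animals it passed without 37°C replicate 3 (log2 fold change -0.69, adjusted p = 0.01) or without 20°C replicate 4 (-0.55, adjusted p = 0.0347), and in mutants without 20°C replicate 3 (-0.47, adjusted p = 0.0275) or without 37°C replicate 1 (-0.50, adjusted p = 0.0268).

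*rsp-4*, *rsp-5* and *rsp-6* gave no call with heat. Over both temperatures *rsp-4*, the SRSF2 type, ranged in wildtype from 135 to 180 CPM, in mutants from 157 to 183 and in rescued animals from 112 to 169.8 CPM. The log2 fold changes of *rsp-4* were 0.02, 0.02 and -0.08 in the 3 genotypes, with 95% intervals of -0.32 to 0.36, -0.20 to 0.24 and -0.38 to 0.21. For *rsp-6* they were 0.12, 0.03 and -0.17 with intervals of -0.24 to 0.48, -0.25 to 0.30 and -0.43 to 0.09. For *rsp-5* they were 0.08, 0.16 and 0.04 with intervals of -0.31 to 0.47, -0.14 to 0.45 and -0.33 to 0.40. The upper bounds of *rsp-4* lie below the fitted rises of *rsp-1*, *rsp-3* and *rsp-7* in wildtype and mutants. The intervals of *rsp-3*, from 0.27 in wildtype and 0.21 in mutants, overlap those of *rsp-4*, and differences between genes were not tested.

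**Figure D2:**
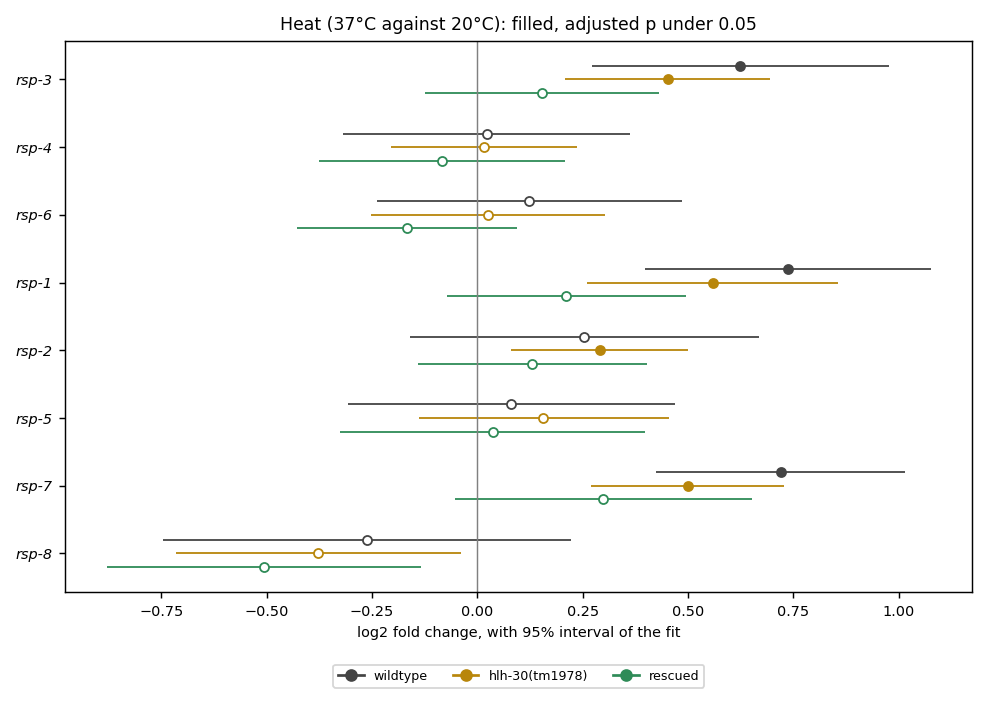
Log2 fold change of each rsp gene with heat (37°C against 20°C, horizontal axis) by genotype, from edgeR. Points are fitted values, lines their 95% intervals, and filled points passed an adjusted p of 0.05. rsp-1, rsp-3 and rsp-7 are filled in wildtype (0.74, 0.62 and 0.72) and mutants (0.56, 0.45 and 0.50) and open in rescued animals.

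As counts, in wildtype 3 of 8 *rsp* genes passed upward and 0 downward, where 32.1% of all tested genes passed in either direction (15% higher, 17.1% lower). In mutants 4 of 8 were higher and 0 lower, against 38.1% of all genes (21.3% higher, 16.8% lower). In rescued animals edgeR called 0 of 8, against 20.4% of all genes (11.7% higher, 8.72% lower), with 1 *rsp* gene at an unadjusted p under 0.05 and 1 called by DESeq2, both *rsp-8*. So low an unadjusted edgeR p was found there for 4517 of all 13482 tested genes. The 8 genes had a median log2 fold change of 0.19 in wildtype, 0.22 in mutants and 0.08 in rescued animals, beside 0.01, 0.04 and 0.01 over all tested genes. With 8 genes a share cannot be set apart from the background, and no such test was run. Non-overlapping groups were seen for 3 of 8 *rsp* genes in wildtype, 4 of 8 in mutants and 0 of 8 in rescued animals, where 40.8%, 36% and 24.5% of all genes had them.

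The call for *rsp-3* in wildtype was lost without 20°C replicate 3 (log2 fold change 0.54, adjusted p = 0.0667) or with depth class as a covariate (0.80, adjusted p = 0.0661). In the 17 shallower libraries alone, which leave 1 heated wildtype library against 3 controls and assume that it varies as they do, the log2 fold changes of *rsp-1*, *rsp-3* and *rsp-7* were 0.91, 0.78 and 0.80 and none passed (adjusted p = 0.0588, 0.117 and 0.0795).

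The next question was whether heat acted differently on these genes between genotypes. All 8 *rsp* genes had a more negative heat response in rescued animals than in wildtype, by 0.09 to 0.57 on the log2 scale, beside a median of -0.05 over all tested genes. None of these differences passed edgeR's interaction test, which 3.07% of all tested genes passed (2.44% with a higher and 0.63% with a lower response). Its unadjusted p was under 0.05 for 3 of 8, and for 3149 of all 13482 tested genes. The difference was -0.57 for *rsp-1* (SE 0.18, adjusted p = 0.0857), -0.51 for *rsp-3* (SE 0.17, adjusted p = 0.0867) and -0.46 for *rsp-7* (SE 0.19, adjusted p = 0.147). DESeq2 called *rsp-3* alone (-0.52, adjusted p = 0.043), as did edgeR with depth class as a covariate (-0.57, adjusted p = 0.04995). The rise of these genes in wildtype and the missing call in rescued animals were therefore not shown to differ at this threshold in the fit as planned.

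Between rescued animals and mutants the 8 differences in heat response ran from -0.38 to -0.13 (median -0.21, all genes -0.08). 0 of 8 passed in edgeR and 0 in DESeq2, with 0.0445% of all genes past the threshold (0.00742% higher, 0.0371% lower). The unadjusted edgeR p was under 0.05 for 2 (*rsp-1* and *rsp-3*), and for 1301 of all 13482 tested genes. Between mutants and wildtype the differences ran from -0.23 to 0.07 (median -0.11, all genes 0.06), with 0 of 8 past the threshold in edgeR and 0 in DESeq2, and 0% of all genes passed. There the unadjusted edgeR p was under 0.05 for 0 of 8, and for 585 of all tested genes. These 3 interactions share groups with each other and with the heat comparisons, so they are not independent of one another.

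The genotypes were then compared at each temperature. At 20°C the *rsp* genes of mutants were close to those of wildtype: the log2 differences ran from -0.18 to 0.29 and 0 of 8 passed in edgeR or DESeq2, beside 0.734% of all genes past the threshold (0.134% higher, 0.601% lower). An unadjusted edgeR p under 0.05 was found for 0 of 8, and for 2263 of all 13482 tested genes. *rsp-6*, the SRSF3 type, was lower in rescued animals than in both other genotypes. Its values at 20°C were 264, 261 and 278 CPM in wildtype, 272, 274, 205 and 260.1 CPM in mutants, and 229, 201, 203 and 195 CPM in rescued animals. All rescued libraries lay below all wildtype libraries, but the mutant library at 205 CPM (replicate 3, the deep one) lay within the rescued range. The edgeR log2 difference was -0.40 against wildtype (SE 0.10, adjusted p = 0.0349) and -0.37 against mutants (SE 0.11, adjusted p = 0.0421).

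*rsp-6* was the only 1 of the 8 genes called at 20°C, in both comparisons, against 12.9% of all genes for wildtype (5% higher, 7.92% lower) and 23.1% for mutants (10.1% higher, 13.1% lower). Its rescued and wildtype groups did not overlap, where 26.1% of all genes had such groups. In the comparison with wildtype, where same-numbered libraries deviated together, a block on the replicate number let 2752 genes in place of 1742 pass, and *rsp-6* stayed past the threshold (-0.45, adjusted p = 0.0359). Both calls were weak: leaving out 1 library ended the call against wildtype in 5 of 7 cases (all but rescued replicates 1 and 4, adjusted p from 0.0752 to 0.126) and that against mutants in 5 of 8 (all but mutant replicate 3 and rescued replicates 1 and 4, adjusted p from 0.0793 to 0.121).

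At 37°C *rsp-1*, *rsp-3* and *rsp-6* were lower in rescued animals than in both wildtype and mutants, by 0.38 to 0.76 on the log2 scale, and *rsp-4* was lower than in mutants. The other 4 genes passed in neither comparison, and no *rsp* gene was called higher. The rescued libraries enter both comparisons, so these calls are not independent of each other.

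*rsp-6* showed the largest of these differences from wildtype. At 37°C it was counted at 338, 321, 239 and 271 CPM in wildtype, at 226, 291, 242 and 269.6 CPM in mutants and at 198, 189.6, 155 and 177 CPM in rescued animals. The highest rescued library was below the lowest library of either other genotype. The edgeR log2 difference was -0.76 against wildtype (SE 0.15, adjusted p = 0.00266) and -0.58 against mutants (SE 0.13, adjusted p = 0.00377). For *rsp-1* the heated libraries given above did not overlap either, with -0.71 against wildtype (SE 0.14, adjusted p = 0.00275) and -0.64 against mutants (SE 0.14, adjusted p = 0.00353). For *rsp-3* the differences were -0.72 against wildtype (SE 0.13, adjusted p = 0.00146) and -0.38 against mutants (SE 0.12, adjusted p = 0.0204), and again no library of the compared groups overlapped.

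*rsp-4* at 37°C was counted at 157, 183, 159.5 and 177 CPM in mutants and at 149.5, 138, 112 and 145 CPM in rescued animals, groups that lay apart by a small margin. The edgeR log2 difference was -0.38 (SE 0.13, adjusted p = 0.0302). Against wildtype, at 168, 165, 136 and 154 CPM, it was -0.25 (SE 0.14, adjusted p = 0.16). Among the genes without a call, *rsp-2* differed by -0.31 and -0.24 from wildtype and mutants, *rsp-7* by -0.28 and -0.17, *rsp-8* by -0.40 and -0.09, and *rsp-5* by 0.11 and -0.24.

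Against wildtype 3 of 8 genes were thus lower at 37°C, where 40.1% of all tested genes passed (18.2% higher, 21.9% lower). An unadjusted edgeR p under 0.05 was found for 5 of 8, and for 6582 of all 13482 tested genes. Against mutants 4 of 8 were lower, where 36.8% passed (16.5% higher, 20.3% lower). Their median log2 difference was -0.35 against wildtype and -0.31 against mutants, beside -0.04 and 0.00 over all genes. Groups did not overlap for the same 3 of 8 and 4 of 8 genes, where 38.2% and 35.6% of all genes had such groups. Heated mutants and wildtype differed in 0 of 8 genes by edgeR or DESeq2 (0.764% of all genes, 0.134% higher and 0.63% lower), with *rsp-3* at -0.36 (adjusted p = 0.167) and *rsp-5* at 0.33 (adjusted p = 0.203) at an unadjusted p under 0.05. So low an unadjusted p was found there for 2470 of all 13482 tested genes.

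The calls for *rsp-1* and *rsp-6* held without any single library in both comparisons, and that for *rsp-3* did so against wildtype. Against mutants, *rsp-3* was lost in 6 of 8 cases (all but without mutant replicate 4 or rescued replicate 3, adjusted p from 0.0548 to 0.137) and *rsp-4* in 6 of 8 (all but without rescued replicates 1 or 4, adjusted p from 0.0644 to 0.158). Without wildtype replicate 3, *rsp-2* (-0.36, adjusted p = 0.0498) and *rsp-8* (-0.54, adjusted p = 0.0342) also passed against wildtype.

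**Figure D3:**
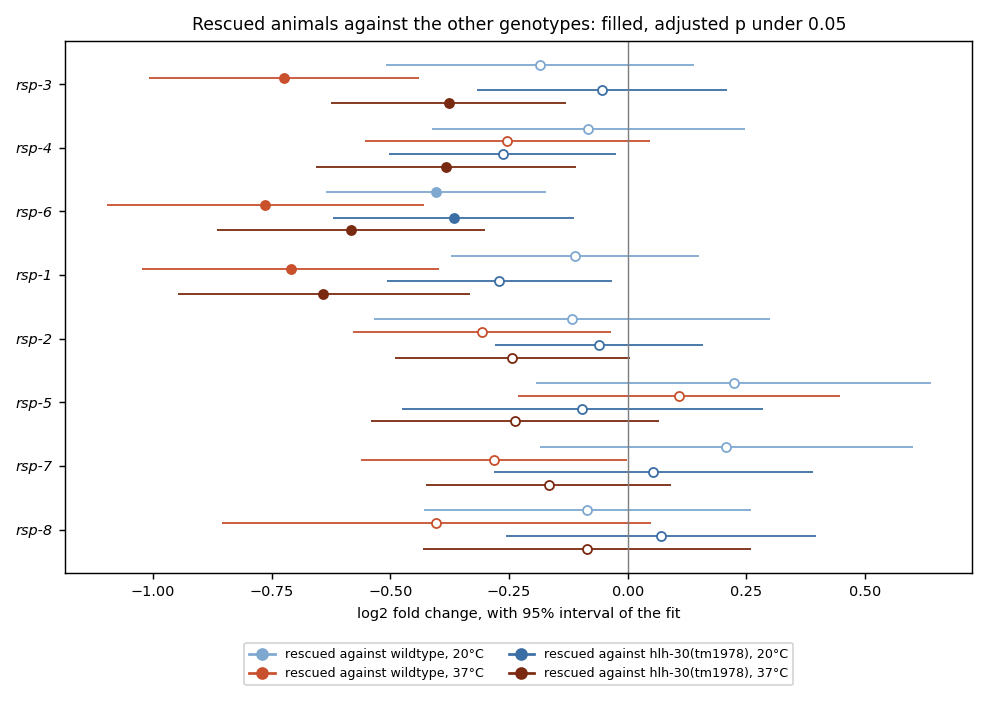
Log2 difference of each rsp gene between rescued animals and wildtype or hlh-30(tm1978) mutants (horizontal axis) at 20°C and 37°C, from edgeR. Points are fitted values, lines their 95% intervals, and filled points passed an adjusted p of 0.05. rsp-6 is filled in all 4 comparisons (-0.40 and -0.37 at 20°C, -0.76 and -0.58 at 37°C), and rsp-1 and rsp-3 only at 37°C.

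Scaling mattered for these directions. With library size as the only scaling, the median of all genes moved from -0.04 to 0.19 for rescued animals against wildtype at 37°C and from 0.00 to 0.18 against mutants, and from 0.01 to -0.10 and from 0.04 to -0.11 for heat in wildtype and mutants. The share of higher genes among the calls went from 45.4% to 65.7% and from 44.9% to 63.5% at 37°C, and from 46.9% to 37.5% and 55.9% to 40.7% for heat in wildtype and mutants. For heat in rescued animals that share went from 57.3% to 46%, and for rescued animals at 20°C from 43.5% to 55.7% against mutants and from 38.7% to 54.4% against wildtype. The 3 *rsp* genes called with heat in wildtype and the 3 called lower in rescued animals than in wildtype at 37°C kept their calls under it. For heat in mutants *rsp-2* (0.14, adjusted p = 0.334) and *rsp-3* (0.29, adjusted p = 0.0806) lost theirs and *rsp-8* passed as lower (-0.54, adjusted p = 0.0199), as it did in rescued animals (-0.58, adjusted p = 0.0454). Calls were also lost for *rsp-3* (-0.20, adjusted p = 0.139) and *rsp-4* (-0.21, adjusted p = 0.15) between rescued animals and mutants at 37°C and for *rsp-6* in both comparisons at 20°C.

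Marker genes of tissues also changed in several of these comparisons, for which the shares of all genes called are given above. In bulk RNA fewer cells of a type and less RNA per cell cannot be told apart. The summed level of 8 germline and oocyte markers ranged from 871 to 2060 CPM in wildtype at 20°C and from 2602 to 4642 CPM at 37°C, in mutants from 979.5 to 1718 and from 1778 to 3206 CPM, and in rescued animals from 1147 to 2688 and from 1904 to 2988 CPM. Of these 8, heat raised 4 in wildtype, 4 in mutants (and lowered 1), and 2 in rescued animals, and 4 were lower in rescued animals than in wildtype at 37°C. The summed germline markers were high in the heated wildtype libraries, as were *rsp-1*, *rsp-3* and *rsp-7*. Between heated rescued animals and heated mutants, 1 of the 8 germline markers was higher and 0 were lower, their median log2 difference was -0.16, and the sums overlapped. In that comparison *rsp-1*, *rsp-3*, *rsp-4* and *rsp-6* were lower. The 5 intestine markers summed to between 24915 and 50980 CPM in wildtype at 20°C and between 2328 and 4518 CPM at 37°C. These sums follow mostly 1 gene, *vit-2*, which ran from 1428 to 50141 CPM over all libraries. No other marker of this list exceeded 953 CPM. All 5 passed as lower with heat in wildtype and mutants, 2 did in rescued animals, and all 5 were higher in rescued animals than in either other genotype at 37°C. The 4 sperm markers, at 0.588 to 21.1 CPM in sum, were all higher in rescued animals than in mutants at both temperatures. The 5 neuron markers, among them *rab-3*, whose control sequences the transgene carries, summed at 20°C to 183 to 204 CPM (wildtype), 124 to 157 CPM (mutants) and 212 to 258 CPM (rescued animals). At 37°C they ranged from 194 to 201.5, from 159 to 169 and from 165 to 174 CPM. Within these sums *rab-3* alone ran from 0.813 to 71.9 CPM over all libraries. Of the 5, 1 was higher and 1 lower in rescued animals than in wildtype at 20°C, and 2 were higher and 2 lower at 37°C. Against mutants 2 were higher and 0 lower at 20°C, and 2 higher and 1 lower at 37°C. The 4 hypodermis markers went with heat from between 1228 and 1659 to between 1418 and 3804 CPM in wildtype, from between 1282 and 2229 to between 2011 and 4950 in mutants and from between 1978 and 2456 to between 3281 and 6138 in rescued animals, where 3 of 4 passed as higher. At 37°C 3 of 4 were also higher in rescued animals than in wildtype and 2 of 4 than in mutants. The 4 body wall muscle markers summed to between 347 and 953 CPM at 20°C and between 502 and 1387 CPM at 37°C over the 3 genotypes, with 2 of 4 higher in rescued animals than in either other genotype at 37°C. Every listed marker was counted in each group, although *dpy-7* (hypodermis), *msp-3* and *msp-10* (sperm) were at 0 in at least 1 library. The part of these marker changes in the *rsp* results was not tested.

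**Figure D4:**
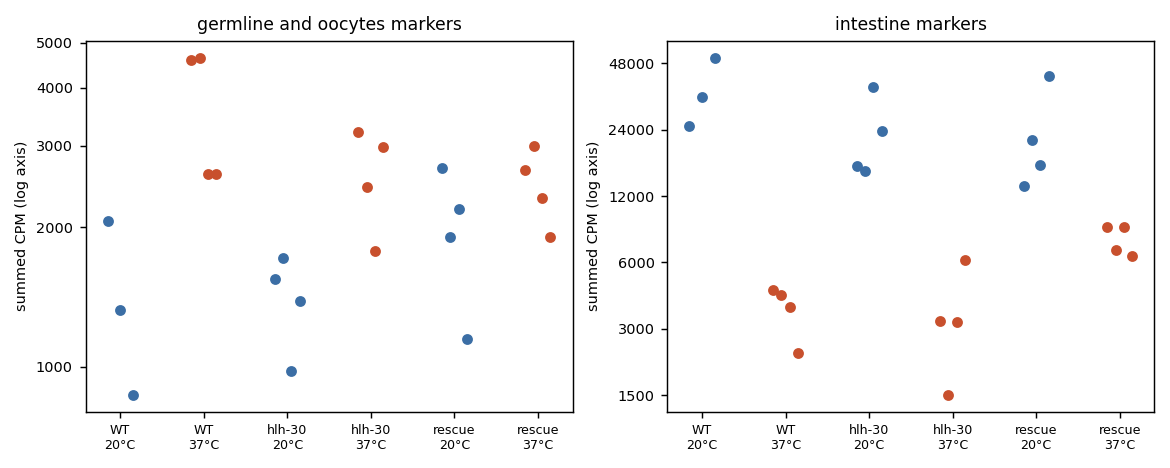
Summed CPM of the germline and oocyte markers (left, 8 genes) and the intestine markers (right, 5 genes) in each library by group (horizontal axis), on log axes. Germline markers run from 871 to 2060 CPM in wildtype at 20°C and from 2602 to 4642 CPM at 37°C, and intestine markers from 24915 to 50980 CPM and from 2328 to 4518 CPM. The intestine sums follow mostly vit-2, and no other intestine marker exceeded 953 CPM in any library.

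The *rsp* genes were also set beside other RNA processing genes, by how many passed with heat. Over all tested genes the shares called higher were 15% (wildtype), 21.3% (mutants) and 11.7% (rescued animals), those called lower were 17.1%, 16.8% and 8.72%, and these shares stand beside each list's counts. The lists are described by their counts and medians, with no test of a list. Among SR kinases and SR import, *tsr-1*, which encodes a transportin for SR proteins, was higher in all 3 genotypes (log2 fold changes 0.99, 0.78 and 0.80 in wildtype, mutants and rescued animals), and the SR kinase genes *spk-1* and *madd-3* passed in none. The median of these 3 genes was 0.53, 0.42 and 0.09, beside 0.01, 0.04 and 0.01 over all genes. Of 5 SR-related and exon junction genes, 2 were higher in wildtype, 2 higher and 1 lower in mutants, and 1 higher in rescued animals. That 1 gene was *rsr-2*, counterpart of the human SR-related protein SRRM2, whose level went from 29.0 ± 3.87 CPM (SD, n = 3) to 83.3 ± 13.9 (SD, n = 4) in wildtype, from 23.0 ± 3.71 to 64.1 ± 6.56 in mutants and from 30.3 ± 1.19 to 59.7 ± 4.81 in rescued animals (SD, n = 4 each). Its edgeR log2 fold changes were 1.52, 1.48 and 1.01 (adjusted p = 0.000826, 1.68e-05 and 0.000163), larger than the fitted change of any *rsp* gene. The exon junction gene *rnp-5* was higher in wildtype and mutants (0.85 and 0.72). *swp-1*, of the same list, had values of -0.52, -0.42 and -0.30 in wildtype, mutants and rescued animals, and passed as lower in mutants alone. The median of these 5 genes was 0.49, 0.29 and 0.02.

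The core spliceosome list has 31 genes. In wildtype 3 of them passed upward with heat and 2 downward, in mutants 6 and 1, and in rescued animals 3 and 0. These 5, 7 and 3 calls of 31 compare with 32.1%, 38.1% and 20.4% of all tested genes. *snrp-200* (log2 fold changes 1.16, 1.29 and 0.74) and *eftu-2* (0.72, 0.57 and 0.44), both parts of the U5 particle, were higher in all 3 genotypes. *prp-8*, the U5 scaffold at the catalytic centre, passed in mutants (0.81) and rescued animals (0.39) and had a value of 0.81 with an adjusted p of 0.067 in wildtype, and *prp-21* passed in wildtype (0.79) and mutants (0.63). The median of this list was 0.12 in wildtype, 0.08 in mutants and 0.01 in rescued animals, close to that of all genes (0.01, 0.04 and 0.01).

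Of 18 tested hnRNP and tissue splicing factor genes, 1 was higher and 4 lower in wildtype, 1 higher and 3 lower in mutants and 1 lower in rescued animals, with list medians of -0.30, -0.20 and -0.14, beside 0.01, 0.04 and 0.01 over all genes. In all genes 17.1%, 16.8% and 8.72% passed as lower. The list has 21 names, of which 19 were found in the files. *msi-1*, a neural Musashi RNA-binding protein gene, went from 37.9 ± 5.19 CPM (SD, n = 3) to 9.70 ± 0.893 (SD, n = 4) in wildtype, and its log2 fold changes were -1.97, -1.91 and -1.38. The muscle splicing regulator *sup-12* was lower in wildtype (-1.36) and mutants (-0.97), the muscleblind gene *mbl-1* in wildtype (-1.08), and *hrpf-2* was higher in wildtype and mutants (0.60 and 0.49).

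SR genes are known targets of nonsense-mediated decay through their own poison exons, so its factors were listed too. Of 9 *smg* genes, 3 were higher and 1 lower in wildtype, 3 higher in mutants and 2 higher in rescued animals, where 15%, 21.3% and 11.7% of all tested genes were higher and 17.1% were lower in wildtype. The median log2 fold change of the list was -0.17, -0.09 and 0.00, beside 0.01, 0.04 and 0.01 over all genes. *smg-9* (1.48, 1.63 and 1.14) and *smg-3* (0.49, 0.65 and 0.45) were higher in all 3 genotypes, *smg-8* in wildtype and mutants (0.76 and 0.66), and the kinase gene *smg-1* was lower in wildtype (-0.67). Whether decay of *rsp* transcripts changed cannot be read from counts per gene.

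**Figure D5:**
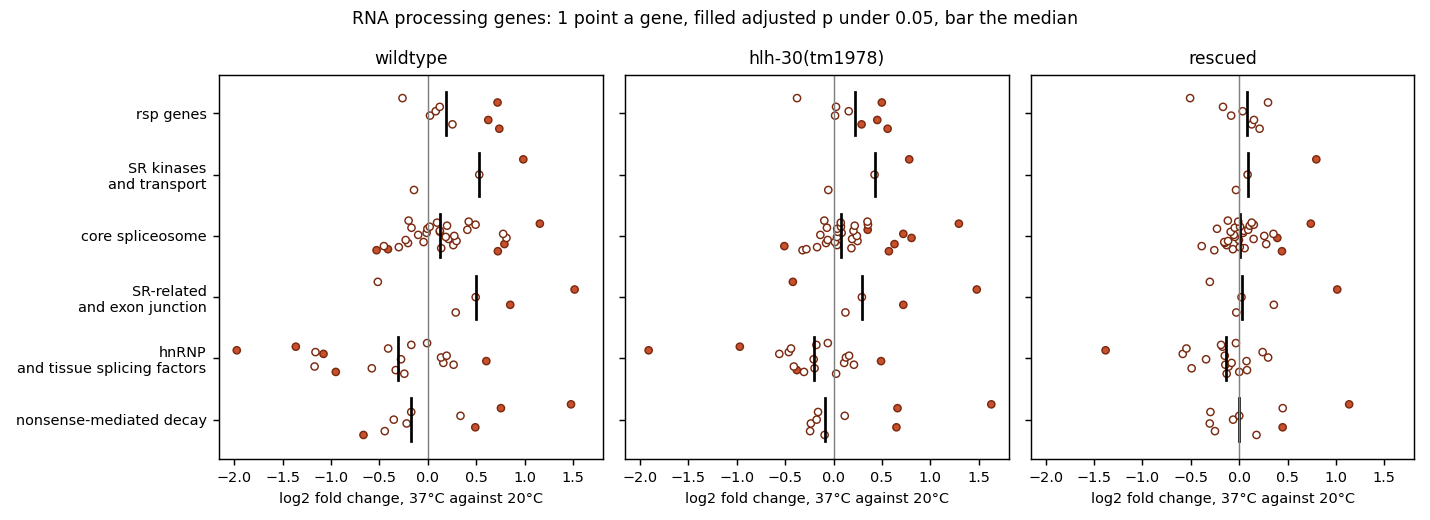
Log2 fold change with heat (horizontal axis) of the rsp genes and of 5 lists of RNA processing genes (rows) by genotype (panels), from edgeR. Each point is a gene, filled where the adjusted p was under 0.05, and vertical bars are list medians, which for the rsp genes are 0.19, 0.22 and 0.08.

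Within the family, levels moved together only in part. Over the 23 libraries the 28 pairwise Pearson correlations of log2 CPM ran from -0.30 to 0.86 with a median of 0.34, and 22 of 28 were above 0. After the group means were removed they ran from -0.04 to 0.80 with a median of 0.51. These libraries share genotypes, temperature and scaling, so the correlations describe the set and were not tested. Among 10009 genes that averaged 50 counts or more, those most like *rsp-3* across the 23 libraries were *cyb-3* (r = 0.97), *lido-12* (0.97) and *attf-2* (0.96). For *rsp-7* they were *mcm-5* (0.96), *plk-1* (0.96) and *mrg-1* (0.96), and for *rsp-1* *hat-1* (0.94), *lin-28* (0.93) and *C56G2.5* (0.92). For *rsp-8* they were *fust-1* (0.89), *nono-1* (0.88) and *larp-5* (0.87). The closest genes were *C44B9.3* for *rsp-2* (0.90), *snfc-5* for *rsp-4* (0.89), *fkb-2* for *rsp-5* (0.93) and *Y37D8A.4* for *rsp-6* (0.92). By rank correlation *fust-1*, *C44B9.3* and *C56G2.5* were first for *rsp-8*, *rsp-2* and *rsp-1*, and other genes came first for *rsp-3*, *rsp-4*, *rsp-5*, *rsp-6* and *rsp-7*.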

How the data were processed

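RNA was sequenced from whole worms. According to the labels and the study's methods, the authors trimmed reads with Trimmomatic, aligned them to WBcel235 using STAR, and obtained gene counts with featureCounts of Subread; the deposited values are raw counts, 1 file per library. Gene names came from the Ensembl WBcel235 annotation, which held 46581 of 46756 identifiers. Genes averaging under 10 counts over the 23 libraries used were removed. Counts were tested with edgeR 4.0.16 (R 4.3.3; TMM scaling, quasi-likelihood F test, Benjamini-Hochberg adjustment over 13482 genes, threshold 0.05), with the groups compared in the fit and all 6 groups for interactions. CPM values carry TMM scaling over all libraries, and log2 CPM a prior count of 2. DESeq2 1.42.0, other scalings and filters, a replicate block, a depth covariate, shallower libraries alone, 1 fit of all libraries and leaving out each library were alternatives. Fits were tested on simulated data. Replicates are independent by the study's methods, and p-values set group differences against the spread between replicates. For the interactions that spread was estimated over all 6 groups. Same-numbered libraries deviated together most between rescued animals and wildtype at 20°C (r from 0.19 to 0.55 in 3 pairs, mean 0.34). A pairing there was hinted at by these deviations and not by the labels. For heat in mutants r ran from 0.03 to 0.44 in 4 pairs (mean 0.21). The members and gene lists were chosen with earlier results of these data known. Named list genes were the up to 4 per list past the threshold with heat in most genotypes and, among those, with the largest mean absolute change; 3 similar genes per member were taken by Pearson correlation, of which some are named.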

Additional observations from a re-analysis of the deposited data

Results flagged for a closer look

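Of 40 sets of 4 libraries examined (8 *rsp* genes in the 5 groups of 4), 1 held a library far from the others, and chance alone flags about 1 set in 20. *rsp-3* stood at 298.3 CPM in rescued animals at 20°C, replicate 1, with the next library at 238.4 CPM, a gap of 0.846 of the group's range. Without that library the log2 fold change of *rsp-3* with heat in rescued animals was 0.23 (adjusted p = 0.228, edgeR) in place of 0.15.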

How the results depend on the processing

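Of 856 single-gene values under alternatives, 731 kept direction and side of the threshold, 65 lost a call, 23 gained one and 37 changed sign, all of the latter in values that had not passed. For heat in wildtype 3 *rsp* genes passed, 0 with the shallower libraries only or with the 24 files as deposited (which count a heated library as a control), and 2 to 4 without 1 library. For heat in mutants 4 became 3 to 4 without 1 library. For heat in rescued animals 0 became 1 (*rsp-8*) with DESeq2, library size only, no filter, the replicate block, depth class as a covariate, the shallower libraries only and 1 fit of all libraries, and 0 to 1 without 1 library. At 20°C, 1 *rsp* gene between rescued animals and mutants became 0 at an adjusted p under 0.01, with RLE factors, library size only, no filter, at least 10 counts in every library and 1 fit of all libraries, and 0 to 2 without 1 library; against wildtype 1 became 0 at an adjusted p under 0.01, with RLE factors, library size only and no filter, and 0 to 1 without 1 library. At 37°C, 4 against mutants became 2 at an adjusted p under 0.01, with upper quartile factors, library size only, no filter and the replicate block, and 2 to 3 without 1 library; 3 against wildtype became 5 with depth class as a covariate and 3 to 5 without 1 library. The interaction of rescued animals and wildtype gave 1 in place of 0 with DESeq2 and depth class as a covariate. Sign changes were, for heat in wildtype, *rsp-4* -0.095 (library size only) and -0.019 (replicate block) and *rsp-5* -0.041 and -0.004; for heat in mutants, *rsp-4* -0.014 (DESeq2 and RLE factors), -0.016 (upper quartile factors), -0.137 (library size only) and -0.033 (no filter), and *rsp-6* -0.004 (DESeq2, RLE and upper quartile factors), -0.133 (library size only), -0.021 (no filter) and -0.005 (shallower libraries only); for heat in rescued animals, *rsp-5* -0.061 (library size only); and between rescued animals and others at 37°C, against mutants *rsp-7* 0.005 (library size only) and *rsp-8* 0.046 (upper quartile factors), 0.106 (library size only) and 0 (at least 10 counts in every library), and against wildtype *rsp-5* -0.112 (depth class as a covariate). Without 1 library, *rsp-4* ran from -0.056 to 0.175 and *rsp-5* from -0.019 to 0.235 for heat in wildtype, *rsp-4* from -0.071 to 0.05 and *rsp-6* from -0.063 to 0.084 in mutants, *rsp-5* from -0.085 to 0.121 in rescued animals, and *rsp-8* from -0.241 to 0.103 between rescued animals and mutants at 37°C. In the other comparisons a pairing by replicate number was neither shown nor excluded. Beyond the counts given above, the replicate block changed none of *rsp* genes by over 1.5 times. It added *rsp-8* to the calls with heat in mutants (5 in place of 4). All-gene counts went under it from 99 to 18 for mutants against wildtype at 20°C. For the interactions of rescued animals with wildtype and mutants they went from 414 to 634 and from 6 to 18. Same-numbered libraries correlated from -0.20 to 0.49 in these other comparisons, and from 0.03 to 0.44 in the 4 pairs for heat in mutants. At an adjusted p under 0.01 the all-gene counts were 2021, 3283 and 1368 for heat in wildtype, mutants and rescued animals, 23 and 49 for mutants against wildtype at 20°C and 37°C, 1716 and 2971 for rescued animals against mutants, 576 and 3161 against wildtype, and 53 and 0 for the interactions of rescued animals with wildtype and mutants. Without 1 library they moved by over 1.5 times for heat in rescued animals (2756, 1780 without 37°C replicate 2), for mutants against wildtype at 20°C (99, 28 to 188) and 37°C (103, 55 to 198), for rescued animals against wildtype at 20°C (1742, 742 to 1115 without wildtype replicate 3 or rescued replicates 1, 2 or 3), and, without 1 replicate number, for the interactions with wildtype (414, 16 to 232) and mutants (6, 0 to 2). Under the other alternatives, all-gene counts that moved by over 1.5 times were, for heat in wildtype (4328), 1350 with depth class as a covariate, 1040 with the shallower libraries only and 0 with the 24 files; for mutants against wildtype, 426 with DESeq2, 410 with 1 fit and 42 with the 24 files at 20°C (99), and 651, 649, 55, 234 and 535 with DESeq2, no filter, depth covariate, shallower libraries only and 1 fit at 37°C (103); for rescued animals against wildtype, 3154 with 1 fit at 20°C (1742) and 3419 with the shallower libraries only at 37°C (5409); and for the interactions, with wildtype (414), 958, 763, 815, 3 and 0 with DESeq2, no filter, depth covariate, shallower libraries only and the 24 files, with mutants (6), 76, 90, 0 and 1 with DESeq2, no filter, upper quartile factors and at least 10 counts in every library, and between mutants and wildtype (0), 2, 5 and 1 with DESeq2, no filter and depth covariate. Depth class could not be fitted for rescued animals against wildtype at 20°C, where no library is deep. The causes of these shifts were not tested.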

Other observations

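The core spliceosome list was also compared between genotypes. Of its 31 genes at 37°C, 11 were lower and 0 higher in rescued animals than in mutants (36.8% of all tested genes passed, 16.5% higher and 20.3% lower), and 10 were lower and 2 higher than in wildtype (40.1% passed, 18.2% higher and 21.9% lower). The total number of calls was thus near that of all genes, and the list was not tested. The list's median log2 difference was -0.20 and -0.19, beside 0.00 and -0.04 over all genes. The genes named here were chosen after their values were seen. *snr-7* and *snr-3*, which encode Sm proteins that form the ring of spliceosomal particles, differed at 37°C by -1.01 and -0.90 from mutants and by -1.01 and -0.62 from wildtype. At 20°C these differences were already -0.78 and -0.61 from mutants (adjusted p = 0.000609 and 0.00204, edgeR) and -0.60 and -0.33 from wildtype (adjusted p = 0.028 and 0.091). *rnp-2*, which encodes a small nuclear ribonucleoprotein, differed from mutants and wildtype by -0.98 and -1.02 at 37°C and by -0.87 and -0.72 at 20°C (adjusted p = 0.000502 and 0.00839), while the helicase genes *mog-1* (0.46) and *mog-5* (0.50) were higher than in wildtype at 37°C. At 20°C 9 of the 31 were lower than in mutants (13.1% of all genes) and 3 lower than in wildtype (7.92%), with 0 higher in both. The rescued libraries are shared by the comparisons.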
